A study of Mus musculus with 3 samples.

Results

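The desmosome is the cell junction that ties the keratin filaments of neighbouring epidermal cells together. Its transmembrane cadherins end in a cytoplasmic plaque of armadillo proteins, which are plakoglobin (Jup) and the plakophilins (Pkp1 to Pkp4), and desmoplakin (Dsp), a plakin, links that plaque to keratin. Perp is a tetraspan membrane protein of the desmosome, whose gene is a target of p53 and p63. Periplakin (Ppl) and envoplakin (Evpl) are plakins that connect filaments and desmosomes to the cornified envelope, the protein shell of the outermost epidermal cells. DLX3 is a homeodomain transcription factor of the differentiating epidermis, hair and teeth.

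These 9 genes were chosen by name from the 21887 protein-coding genes placed on the mouse chromosomes of the RefSeq annotation. Peaks were collected over each gene span with 20 kb on either side, called the window here. Chromatin immunoprecipitation followed by sequencing (ChIP-seq) had been done on suprabasal keratinocytes, the differentiating cells of the epidermis, of wild type BALB/c mice. There was 1 library with anti-Dlx3, 1 with anti-H3K4me3 and 1 with nonspecific IgG. H3K4me3 is the trimethylated form of lysine 4 in histone H3, found at active promoters. The IgG library came without a peak list and was not analysed here. The series text describes cells from newborn animals and the sample labels give adult animals, which was not settled here.

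The windows held 52 of the 18087 DLX3 peaks and 29 of the 16735 H3K4me3 peaks, with no peak shared between 2 of the genes. With 1 library per antibody there is no replicate spread and no test between groups, so the counts and scores below describe these 2 lists. Read depth is not given in the files, and the deposited score of a peak, which depends on depth and width, is used only to rank peaks within its own list. The cell label was set against H3K4me3 within 1 kb of the gene start, or of either end of the span where the annotation gave no start. Suprabasal markers carried it at 6 of 7 genes (not Flg, filaggrin), basal markers at 5 of 5 and fibroblast markers at 3 of 4. Melanocyte markers carried it at 1 of 4, endothelial markers at 1 of 3 and immune markers at 0 of 4. The share over all protein-coding genes was 60.3%. Suprabasal, basal and most fibroblast markers were thus marked, and these short lists do not tell those cells apart. The part of other cells in the values below was not tested.

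All 9 genes had DLX3 and H3K4me3 in the window and, at the same end of the gene, both DLX3 and H3K4me3 within 1 kb. Among all protein-coding genes 52.5% had DLX3 in the window and 71.2% had H3K4me3 in it, while 27.7% had it within 1 kb of the start (or of either end), 60.3% had H3K4me3 there and 27.2% had both. Among the genes with H3K4me3 at the start or ends, 45.1% had DLX3 there too and 72.5% had it in the window. For 3 of the genes, Dsp, Jup and Pkp4, the RefSeq promoter table gives the start, and it lies at the end that carried the mark. For Pkp1, Pkp2, Pkp3, Perp, Ppl and Evpl no start was used, and distances are counted from the end with H3K4me3, called the marked end.

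Promoter sequence is shown for Dsp and Jup, whose starts lie under a DLX3 peak and whose upstream bases fall in no other annotated gene. It comes from RefSeq (GRCm38.p6, the assembly of mm10), reads 5′ to 3′ on the gene's strand, and capitals mark motifs that were searched on both strands. Dsp is chr13:38151044-38151293 on the plus strand, the 250 bases before the start. Jup is chr11:100397840-100398040 on the minus strand, 201 bases that stop 50 bases before the start given in the table, where the annotated span begins. Each stretch lies wholly inside the DLX3 peak at its gene.
Dsp: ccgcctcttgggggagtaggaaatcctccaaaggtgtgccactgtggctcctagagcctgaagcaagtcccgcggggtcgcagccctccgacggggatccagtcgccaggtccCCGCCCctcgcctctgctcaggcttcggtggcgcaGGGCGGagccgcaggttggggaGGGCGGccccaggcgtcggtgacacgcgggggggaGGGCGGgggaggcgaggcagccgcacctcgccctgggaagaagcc
Jup: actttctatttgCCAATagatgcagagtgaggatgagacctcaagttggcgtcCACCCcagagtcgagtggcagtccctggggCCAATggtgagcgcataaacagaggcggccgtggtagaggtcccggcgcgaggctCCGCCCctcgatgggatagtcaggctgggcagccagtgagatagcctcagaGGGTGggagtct

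The Dsp stretch was 72.4% G and C and held the GC box GGGCGG 4 times. The Jup stretch was 60.2% G and C and held GGGCGG 1 time, CCAAT 2 times and CACCC, the core read by Krüppel-like factors, 2 times. In the full 250 bases before the Jup start, each of these 3 motifs stood 2 times. Of all 32851 promoters in the table, 32.7% had GGGCGG in the 250 bases before the start, 33.8% had CCAAT and 52.0% had CACCC. In Pkp4, whose table lists 2 starts, GGGCGG stood 5 times before the outer start, with 3 of these overlapping one another, and 0 times before the inner one. Neither the homeodomain core TAATTA, nor the AP-1 motif TGANTCA, nor TATAAA was found in the 250 bases before any of these 4 starts, and 4.84%, 6.75% and 12.4% of all promoters held them. These are letter matches only.

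Desmoplakin, the plaque protein that binds keratin filaments, had the most DLX3 peaks in its window of the 9 genes. Dsp (chromosome 13, 38151294 to 38198577, mm10) had 11 in its window, or 12.6 per 100 kb, and 0.247% of protein-coding genes had as many. One of them, score 147.11, was centred 47 bp outside the start, over the promoter shown above. A further 4 followed it inside the gene, centred 1560, 2597, 4460 and 5576 bp from the start, with scores of 164.31, 112.08, 86.47 and 72.57. These 5 peaks lay on 1 H3K4me3 peak of 9780 bp, which had the score 3100. That value is shared by 766 H3K4me3 peaks, with 141 above it and a highest score of 3233.06, so peaks at 3100 cannot be ranked among themselves. Only 0.167% of H3K4me3 peaks were as wide. A peak of score 104.85 centred 5838 bp outside the start met a separate, low H3K4me3 peak (score 207.89). Without H3K4me3 there were 2 more outside the gene, 7682 and 18973 bp away (113.92 and 70.57), and 2 inside it, at 11505 and 19773 bp (142.14 and 74.27). The highest score in the Dsp window, 206.56, stood 193 bp from the start of the neighbouring Snrnp48 and not at Dsp. The 11 and the 0.247% include that peak, and the lead of Dsp over Perp, which had 10, rested on it.

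Plakoglobin is the armadillo protein shared by desmosomes and adherens junctions. Jup (chromosome 11, 100368856 to 100397839) had 8 DLX3 peaks, and 7 of them met H3K4me3. Its promoter peak was the widest of the 52, at 2038 bp, and scored 256.26, a score reached by 4.21% of the DLX3 list. It was centred 21 bp outside the span, in an H3K4me3 peak of 6603 bp with the score 2920.65. Both peaks also cover the start of Gm12348, a long noncoding RNA gene annotated on the opposite strand with 276 bases between it and Jup. That H3K4me3 peak held 2 weaker DLX3 peaks, of 72.97 and 56.06, centred 2356 and 4543 bp inside the gene. Deeper in the gene, at 9914 and 11082 bp, DLX3 peaks of 152.57 and 61.74 shared a second, lower H3K4me3 peak (261.41). Outside the gene, a peak of 98.95 at 4887 bp had no H3K4me3 and lay inside Gm12348. The highest in the window, 265.61, and one of 128.52 lay 8525 and 9314 bp from Jup but nearer to P3h4, at 2103 and 1314 bp from an end of that gene.

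The plakophilins differed from one another in how many DLX3 peaks they had and where. Plakophilin 1 is abundant in the suprabasal layers, plakophilin 2 is the main form in heart muscle, plakophilin 3 occurs in most desmosomes of stratified epithelium, and plakophilin 4 (p0071) is a more distant relative found also at adherens junctions. Counts were 8 at Pkp1, 2 at Pkp2, 3 at Pkp3 and 3 at Pkp4. Because windows grow with the gene, the densities were 9.11, 2.01, 5.74 and 1.28 peaks per 100 kb in the same order. Pkp1 was thus the densest and Pkp4 the sparsest, with 1.94% and 43.1% of protein-coding genes at least as dense. Over all protein-coding genes, of which 52.5% had any DLX3 peak in the window, the median was 0.651 per 100 kb.

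At Pkp1 (chromosome 1, 135871394 to 135919207) the promoter peak scored 142.98 and was centred 60 bp outside the marked end. The stronger DLX3 peak, 198, was centred 2279 bp inside the gene. Both lay in an H3K4me3 peak of 7478 bp with a score of 3100. Outside this end stood a row of 3 DLX3 peaks without H3K4me3, centred at 6731, 10979 and 14780 bp, with scores of 88.69, 106.94 and 113.17. Of the other 3 peaks, 2 were inside the gene, one without H3K4me3 (86.45) and one on a low H3K4me3 peak (60.83), and one of 55 lay past the far end, nearer to Tnnt2. The gene body also carried 4 low H3K4me3 peaks, scoring 50.68 to 99.62.

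Pkp2 (chromosome 16, 16213345 to 16272712) had the fewest DLX3 and H3K4me3 peaks of the plakophilins, though per 100 kb DLX3 was sparser at Pkp4. A DLX3 peak of 136.17 was centred 216 bp outside the marked end, and a weak one of 66.36 lay 11340 bp inside the gene without H3K4me3. Its single H3K4me3 peak, 1964 bp wide with a score of 1030.66, was narrower than the median of the list, 2080 bp. At Pkp3 (chromosome 7, 141078229 to 141090511) the promoter was arranged otherwise: no DLX3 peak covered the marked end itself. The nearest, with a score of 206.28 and a width of 1430 bp, was centred 1086 bp inside the gene, followed by one of 127.48 at 2766 bp. Both fell in an H3K4me3 peak of 5970 bp (score 2303.9). The third peak in the window, 93.53, was nearer to Sigirr than to Pkp3.

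Pkp4 (chromosome 2, 59160850 to 59355205) had the weakest DLX3 peak at a promoter and a stronger one far inside. The promoter peak scored 50.8, so that 98.1% of DLX3 peaks scored as high, on an H3K4me3 peak of 3242 bp with a score of 3100. This promoter is shared: the span of Ccdc148, annotated on the opposite strand, ends 21 bases away, and the DLX3 peak was centred 159 bp from it and 181 bp from Pkp4. A DLX3 peak of 208.07 was centred 177858 bp into Pkp4 on a small H3K4me3 peak (1586 bp, score 88.72), and another of 85.21 lay at 38014 bp without H3K4me3.

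Perp, the membrane protein gene, had the highest DLX3 scores and the densest window. Perp (chromosome 10, 18845071 to 18857073) had 10 DLX3 peaks, or 19.2 per 100 kb, and 0.0777% of protein-coding genes were as dense. The promoter peak, 410.54, was centred 60 bp outside the marked end and only 0.774% of DLX3 peaks scored as high. It lay in the widest H3K4me3 peak of the 9 genes, 10484 bp with a score of 3100, together with peaks centred 1512, 3255 and 5301 bp inside the gene. Their scores were 101.19, 145.4 and 336.46, so the second highest score of all 52 was the innermost of this row.

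The other 6 DLX3 peaks at Perp lay past its far end. The strongest, 288.85, was centred 14195 bp beyond that end without H3K4me3, and 2.89% of the DLX3 list scored as high. Nearer to the gene, at 2025 and 3089 bp beyond the end, stood peaks of 88.07 and 143.12, also unmarked. Farther out, peaks of 53.89 and 85.39 were unmarked, and one of 175.41, at 19312 bp, met a low H3K4me3 peak (74.36). No other protein-coding gene had an end nearer to any of these peaks than Perp. No other of the 9 genes had more than 1 DLX3 peak past its unmarked end.

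The 2 plakins of the cornified envelope differed in where DLX3 was strongest. At Ppl (chromosome 16, 5086291 to 5132481), which had 5 DLX3 peaks, the promoter peak was weak, 69.06, centred 214 bp outside the marked end. The stronger peaks lay farther outside, 234.16 at 2521 bp and 196.96 at 4101 bp, and shared a low H3K4me3 peak (96.08) separate from the promoter one, which was 7654 bp wide with a score of 1768.86. Inside the gene, peaks of 62.18 and 90.4 had no H3K4me3. Evpl (chromosome 11, 116220559 to 116238165) had only 2 DLX3 peaks, both at the promoter. They scored 133.27, centred 119 bp outside the marked end, and 97.36, centred 1011 bp inside. Both lay in an H3K4me3 peak of 3933 bp with the lowest score of the 9 promoters, 630.11, below the list's median of 823.67. The annotation places a long noncoding RNA gene, Gm33250, over most of Evpl on the plus strand. Its downstream end, not its start, lies by the marked end of Evpl.

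**Figure D1:**
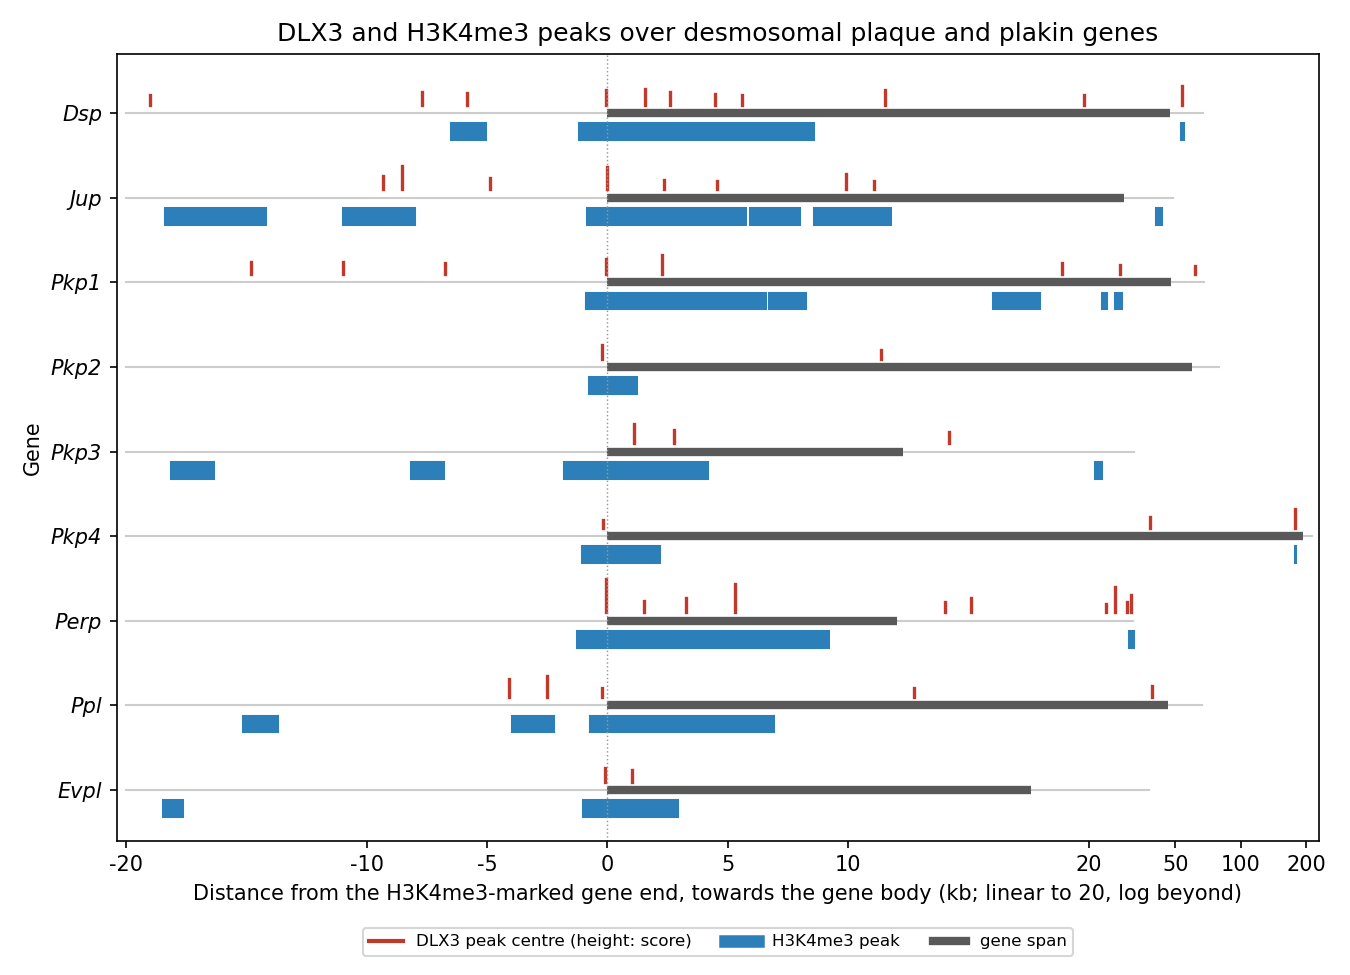
Positions of all 52 DLX3 peaks (red ticks at the peak centre, taller for a higher deposited score) and 29 H3K4me3 peaks (blue bars) at the 9 genes, by distance in kb from the marked end with the gene body (dark bar) to the right; the axis is linear to 20 kb and logarithmic beyond, and thin grey lines show the windows. Every gene has an H3K4me3 bar across 0 and a DLX3 peak with some base within 1 kb of it, none has DLX3 within 1 kb of the other end, and Perp has 6 ticks past its far end.

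Across the 9 genes DLX3 was found at the marked end. All 9 had DLX3 within 1 kb of it and 0 of 9 had DLX3 within 1 kb of the other end. Among the 11380 protein-coding genes with H3K4me3 at exactly 1 end, 43.5% had DLX3 at the marked end and 1.61% at the unmarked end. The centres of 22 of the 52 peaks lay within 5 kb of the marked end, and the others lay farther away. No share over all genes was computed for this distance or for the positions that follow. By position, 19 peaks were centred outside the marked end, 24 inside the gene span and 9 beyond the unmarked end. Those without H3K4me3 numbered 6, 7 and 7 in these 3 positions. In all, 6 of the 52 peaks, in 5 windows, were centred nearer to an end of another protein-coding gene (Snrnp48, P3h4, Tnnt2, Sigirr and Ccdc148).

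H3K4me3 overlapped 32 of the 52 DLX3 peaks (61.5%) by at least 1 bp, against 42.1% of all DLX3 peaks. Of these 32, 21 lay on the H3K4me3 peak at the marked end of a named gene and 11 on another H3K4me3 peak. DLX3 peaks without H3K4me3 were found in 8 of the 9 windows, the exception being Evpl, and in 25.0% of the windows of all protein-coding genes. In the Pkp3 window the only such peak was centred nearer to Sigirr. The windows of the 9 genes also had a longer median length than those of all protein-coding genes. The 32 marked peaks had a median score of 139.58 (range 50.8 to 410.54) and the 20 unmarked a median of 88.38 (53.89 to 288.85). In the whole DLX3 list the medians were 93.79 with H3K4me3 and 76.83 without. The marked peaks were also wider, with a median of 737 bp against 641 bp, as in the whole list, with 687 bp against 589 bp. The part of width in the scores was not tested.

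**Figure D2:**
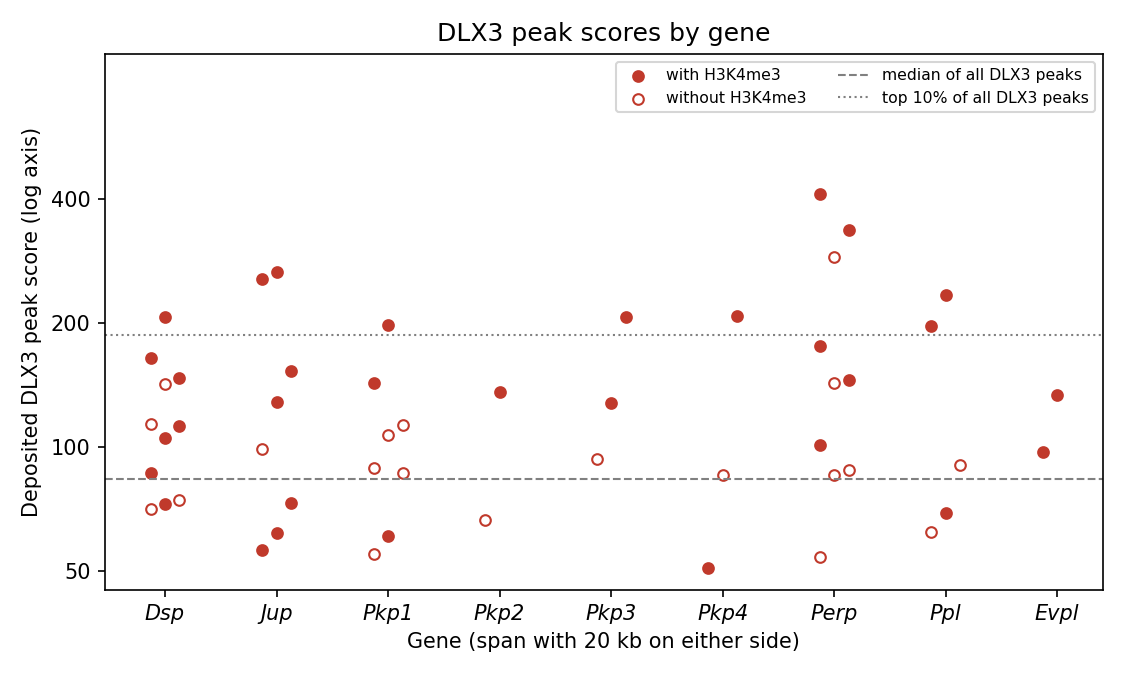
Deposited score of each DLX3 peak (log axis) by gene, with filled points for peaks that overlap H3K4me3 and open points for those that do not; the dashed line is the median of all DLX3 peaks, 83.35, and the dotted line the score that begins the top 10%, 187. The range within most genes is wide: Perp runs from 53.89 to 410.54, and Pkp2 and Evpl have no point above the dotted line.

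A peak in the top 10% of DLX3 scores stood in 7 of the 9 windows, against 9.87% of the windows of all protein-coding genes; the top 20% also gave 7 of 9, against 18.1%. In the Dsp window the peak was the one at Snrnp48, so 6 genes remained when peaks nearer to another gene were set aside. In 4 of the 9 genes, namely Pkp2, Pkp3, Perp and Evpl, the highest score in the window belonged to a peak within 1 kb of the marked end. No share over all genes was computed for this count. Pkp2 and Evpl had only 2 DLX3 peaks each, and at Evpl both were at the promoter. Of the 52 peaks 39 scored at or above the median of the DLX3 list and 13 below it. Window lengths differed, with a median of 86.2 kb for the 9 genes and 57.2 kb for all protein-coding genes, and longer windows can hold more peaks. Per 100 kb the median was 5.80 DLX3 peaks for the 9 genes and 0.651 for all.

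H3K4me3 at most of these promoters was wide, and it reached further into the gene than outside it, as at most genes with exactly 1 marked end. At 6 of the 9 genes (Dsp, Jup, Pkp1, Pkp3, Perp and Ppl) the peak at the marked end was wider than 5 kb, against 3.17% of all H3K4me3 peaks. The median width was 6603 bp for the 9 and 2080 bp for the whole list. The whole list includes peaks away from gene ends, and widths at the marked ends of other genes were not computed. In all 9 the peak extended further into the gene than outside it, by 1220 bp (Pkp2) to 9209 bp (Perp) inside and 728 bp (Ppl) to 1792 bp (Pkp3) outside. This was also so at 83.6% of the 11380 protein-coding genes with exactly 1 marked end. Dsp, Pkp1, Pkp4 and Perp shared the tied score of 3100, which 5.42% of H3K4me3 peaks reached or exceeded.

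More than 1 DLX3 peak on a single promoter H3K4me3 peak was seen at 6 of the 9 genes, namely 5 at Dsp, 4 at Perp, 3 at Jup and 2 each at Pkp1, Pkp3 and Evpl. The same held for 3.90% of protein-coding genes with exactly 1 marked end and for 3.91% of all H3K4me3 peaks. Only 8 H3K4me3 peaks of the whole list (0.0478%) met 5 or more DLX3 peaks, and 37 (0.221%) met 4 or more. Width moved with this count. Of the 28 H3K4me3 peaks at least as wide as that of Dsp, 35.7% met 4 or more, and of the 1385 at least as wide as that of Evpl, 24.7% met 2 or more. Set per length, the 9 promoter peaks held 0.368 DLX3 peaks per kb, all H3K4me3 peaks wider than 5 kb 0.218 and the whole list 0.197. Ppl was the lowest of the 9 at 0.131 per kb, and Dsp, Pkp2 and Evpl were the highest at 0.511, 0.509 and 0.509. The part of H3K4me3 width and score in these counts was not tested, and no IgG peaks were analysed.

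**Figure D3:**
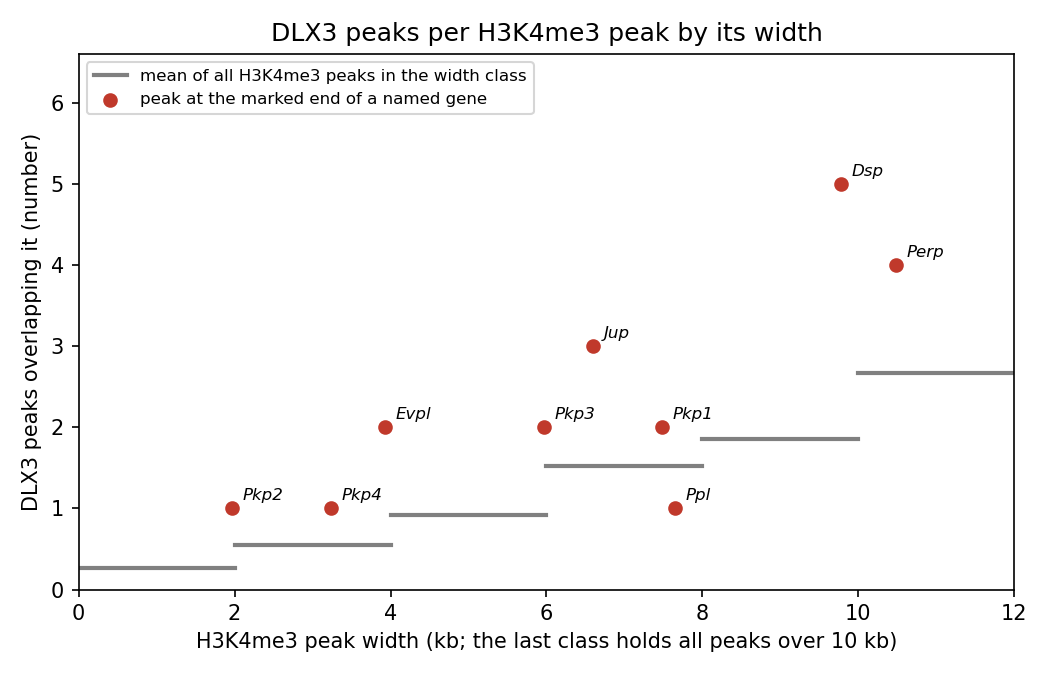
Number of DLX3 peaks overlapping the H3K4me3 peak at the marked end of each of the 9 genes (red points) by the width of that H3K4me3 peak in kb; grey lines give the mean number for all H3K4me3 peaks in classes of 2 kb, the last class holding every peak over 10 kb. Of the 9 points only Ppl, with 1 DLX3 peak on 7654 bp, lies below the mean of its class, which is 1.52.

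Of the 29 H3K4me3 peaks in the windows 18 met DLX3, against 40.7% of the whole list, and these included the 9 at the marked ends. Away from the marked ends, the windows held 20 further H3K4me3 peaks, and these were narrower and weaker, with a median width of 1664 bp and a median score of 114.56. DLX3 met 9 of these 20, a share near the 40.7% of the whole list. Of the 20, 8 lay within 1 kb of an end of a neighbouring protein-coding gene and 12 did not. DLX3 met 2 of the 8, those at Snrnp48 and P3h4. The 12 scored 50.68 to 261.41, and DLX3 met 7 of them, outside or inside Dsp, Jup, Pkp1, Pkp4, Perp and Ppl.

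Other genes of the junction and its partners were set beside the 9, from lists chosen by role with earlier results of these data known. DLX3 lay in the window of 10 of 10 genes for the desmosomal cadherins and corneodesmosin, highest at Dsg1c (304.04) and Dsc1 (243.49), and within 1 kb of the start or ends in 5. The windows of neighbouring cadherin genes overlap, so peaks are shared there. The other plakins had DLX3 in 4 of 4 windows and at 2 starts, highest at Macf1 (232), a microtubule and actin linker, and Eppk1 (208.67), epiplakin. Other armadillo junction genes also had 4 of 4 and 2, led by Ctnnb1 (397.21), the gene of β-catenin, and Ctnnd1 (107.31), that of p120 catenin. Keratin partners of desmoplakin had 3 of 4 and 2, with Krt10 (146.16) and Krt14 (131.91) highest and Krt1 at 0 DLX3 peaks. The cornified envelope partners had 6 of 6 and 3, with Tgm1 (192.62), a transglutaminase that cross-links the envelope, and Kazn (180.49), which encodes a periplakin-binding protein, highest. These counts at the start stand beside 9 of 9 for the plaque and plakin genes and 27.7% of all protein-coding genes. Among protein-coding genes with H3K4me3 there, the share with DLX3 was 45.1%. The lists had H3K4me3 there in 9 of 10, 3 of 4, 4 of 4, 4 of 4 and 5 of 6, in order. Their window counts stand beside 52.5% of all protein-coding genes. Median DLX3 peaks per 100 kb were 2.65 for the cadherin list, 4.20 for the plakins, 2.35 for the armadillo genes, 3.01 for the keratins and 4.31 for the envelope partners, against 5.80 for the 9 genes.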

How the data were processed

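Libraries were 1 each for DLX3, H3K4me3 and IgG; no file of IgG was analysed. Build mm10, MACS 1.4.2, Bowtie 1.1.2 and HOMER are named in the submitters' processing notes, without roles or settings; read depth is unknown. The authors deposited 1 peak list each for DLX3 and H3K4me3, with a score per peak; values from 50 up have the form of the MACS score, which is not comparable between lists.

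Positions count from 1. Gene spans came from RefSeq (GRCm38.p6), without strand; starts came from its promoter table where listed (17492 protein-coding genes), otherwise both span ends were used. A peak counted in a window or overlap with at least 1 bp in common. Counts were made in Python 3.11.15 with pandas 2.3.3, checked on simulated peaks, and set beside the same count over all protein-coding genes. No significance test was made. All 9 genes were named, plus the top 2 of each other list by DLX3 score and any gene nearer to a DLX3 peak. The genes and lists were chosen with earlier results of these data known.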

Additional observations from a re-analysis of the deposited data

How the results depend on the processing

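All 9 genes kept DLX3 in the window with the span alone, with 5 or 50 kb on either side, with peak centres and with the upper 50% of scores, and 7 did with the top 20%. DLX3 at the start remained at 9 genes within 5 kb and with both ends counted, at 8 where the start base had to be covered (not Pkp3), at 7 with scores at or above the median (not Pkp4 or Ppl) and at 5 with the top 20% (Dsp, Jup, Pkp1, Pkp3 and Perp). H3K4me3 at the start gave 6 to 9 genes over its alternatives. The 52 DLX3 peaks became 32 over spans alone and 19 in the top 20%, with 38 to 62 otherwise. The 29 H3K4me3 peaks became 16 over spans alone, 17 with 5 kb, 12 in the upper 50% by score and 6 in the top 20%. The 32 DLX3 peaks on H3K4me3 became 15 with both lists at or above their median and 9 with both in the top 20%; these restrict both lists, so fewer peaks can meet. Centre and 50% cover rules gave 31. No paired analysis was possible because each antibody has 1 library, and no library could be left out. Unknown depth limits what the lack of a peak can show.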
